A study of Bos taurus with 15 samples.

Results

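The apoptosome is the protein wheel that starts the mitochondrial route of programmed cell death. When the outer mitochondrial membrane is opened, cytochrome c leaves the intermembrane space and binds APAF1, which then assembles and recruits the initiator caspase CASP9. CASP8 is the initiator caspase of the other route, which begins at death receptors on the cell surface. Both routes lead to caspases further down that cut other proteins. Inhibitor of apoptosis proteins (IAPs) such as XIAP, BIRC2 and BIRC5 hold the route in check, and DIABLO, which also leaves the mitochondria, binds IAPs and takes them off caspases. Some cell death is a normal feature of the mammalian blastocyst and is more frequent in the inner cell mass than in the trophectoderm.

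The messenger RNAs of 8 such genes were followed in bovine blastocysts: APAF1, cytochrome c, CASP9, CASP8, XIAP, BIRC2, BIRC5 and DIABLO. They were chosen by symbol as rows of the filtered read count table. Of its 10832 genes, 7 were members, since CASP8 did not pass the filter and was read from the unfiltered table of 34773 rows. The row taken for cytochrome c was gene 100847700, listed as LOC100847700. It is not the gene that carries the symbol CYCS in the RefSeq gene table of assembly ARS-UCD2.0, which is gene 510767 and has a row of its own. Both rows are described here, and members are counted with LOC100847700.

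The embryos were produced in vitro and harvested as blastocysts, at day 7 of culture per the labels, while the study's methods give a longer culture. Control embryos (Co) were cultured without vesicles, and the others with extracellular vesicles from the oviducts of postovulatory-stage cows, added either freshly isolated (FeEV) or after freezing and thawing (FoEV). Each of 15 libraries, 5 per group, was a pool of whole embryos made from 1 ng of total RNA, with 8 to 14 embryos in a pool. The groups held 6, 7 and 8 pools (68, 74 and 81 embryos, for Co, FeEV and FoEV), from which those with the best RNA were sequenced. Nothing states whether the pools came from separate cultures, so p-values measure the spread between these pools. Per the study, fresh and frozen vesicles were portions of material from the same oviducts, so FeEV and FoEV share vesicle donors, and the tests below treat their libraries as independent. Which donors go with which pool, and embryo sex, are not given in the sources used here. In a pool of whole embryos, fewer cells of a type and less RNA per cell cannot be told apart.

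Total counts ran from 2571558 to 2977004 in Co, from 2136713 to 3808602 in FeEV and from 3392613 to 4058887 in FoEV, so every FoEV library was deeper than every Co library. Ribosomal RNA genes took 15.5% to 28.2% of counts. Blastocyst markers were present: the summed trophectoderm marker level was 6350 to 8600 CPM (read counts scaled to library size) in Co, 6940 to 10400 in FeEV and 8270 to 11200 in FoEV, and 4 of the 6 markers tested were higher in FoEV than in Co at an unadjusted p under 0.05 (8.18% of all genes were). Most of this sum came from the keratins KRT8 and KRT18 (means of 4270 and 2680 CPM in Co, with CDX2 at 32.9). The 4 higher markers were KRT8, KRT18, GATA2 and GATA3, while CDX2 and TFAP2C were at 0.21 (SE 0.20) and 0.20 (SE 0.11) on the log2 scale. The inner cell mass markers summed to 350.0 to 416 CPM in Co, 352 to 418 in FeEV and 331 to 501 in FoEV. Of these 4, NANOG was at -0.84 on the log2 scale for FoEV to Co (SE 0.26, edgeR adjusted p = 0.178). It was at -0.62 for FeEV to Co (SE 0.26, edgeR adjusted p = 1.0). SOX2, SALL4 and POU5F1 were at -0.03, 0.07 and 0.21 for FoEV to Co, and at -0.32, 0.09 and 0.13 for FeEV to Co. Of the hypoblast markers, FN1 was at -0.29 for FoEV to Co (SE 0.14, edgeR adjusted p = 0.331), GATA6 at -0.03 and GATA4 at 0.32. Lists for other sources stayed low, at up to 15.7 CPM for cumulus cells (PTX3, TNFAIP6 and AMH at no more than 3 counts in any library), 14.4 for oviduct epithelium, 13.0 for sperm and 6.56 for blood cells.

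APAF1, the scaffold of the apoptosome, had its lowest mean level in the FoEV embryos. In Co the level was 37.9, 40.1, 39.3, 54.2 and 41.0 CPM in replicates 1 to 5, in FeEV it was 36.1, 40.1, 29.4, 28.7 and 35.8, and in FoEV it was 27.3, 34.8, 30.3, 28.7 and 31.3. All 5 FoEV libraries lay below all 5 Co libraries, and 4 of 5 FeEV libraries did too, while FoEV and FeEV overlapped. CPM here is scaled by edgeR's trimmed mean of M values, and changes are log2 fold changes from its quasi-likelihood fit over all 10832 genes, with Benjamini-Hochberg adjustment. The FoEV to Co difference was -0.48 (SE 0.13, 95% interval -0.74 to -0.21, edgeR adjusted p = 0.123), which did not pass the threshold of 0.05. The FeEV to Co difference was -0.32 (SE 0.13, interval -0.58 to -0.05, edgeR adjusted p = 1.0), and the FoEV to FeEV difference was -0.16 (SE 0.13, interval -0.43 to 0.11, edgeR adjusted p = 0.724). The 2 comparisons with Co share the same 5 control libraries.

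The APAF1 call in FoEV embryos depended on the test. It passed with edgeR's robust dispersion and likelihood ratio test (-0.44, adjusted p = 0.0343) and with DESeq2 (-0.48, adjusted p = 0.042), within a range of 0.0343 to 0.229 over 11 other settings. The leave-one-out range for the adjusted p in edgeR was 0.0656 to 0.331, with the highest value and the smallest difference (-0.38) without Co replicate 4. When all libraries were thinned to the total of the shallowest, in a single random draw, the difference was -0.63 (edgeR adjusted p = 0.0785). Counts behind these values were 63 to 138 reads per library, and the spread in FoEV (coefficient of variation 9.37%) was no larger than counting error alone gives (9.5%). In Co (15.6% against 9.34%) and in FeEV (14.3% against 10.2%) the spread was larger than counting error. APAF1 residuals about the group means had a Pearson correlation of -0.53 with KRT8, a trophectoderm keratin, over 15 libraries that share library and depth. The part of trophectoderm or inner cell mass content in the APAF1 difference was not tested.

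**Figure D1:**
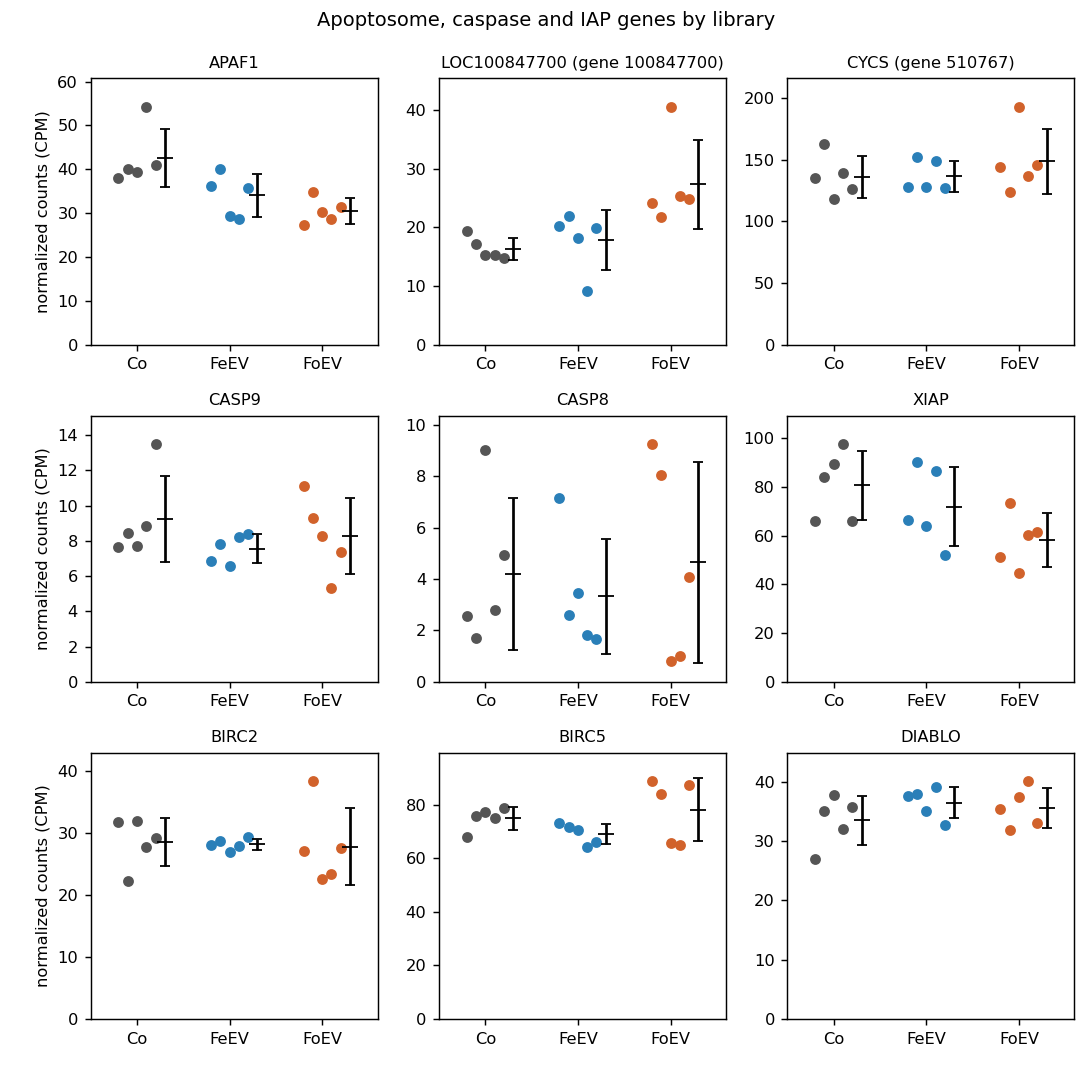
Level of each gene in every library, in trimmed-mean-scaled CPM on axes that start at 0, for Co, FeEV and FoEV (5 libraries each). Points are libraries, bars are the group mean with SD. APAF1 in FoEV (27.3 to 34.8) sat below Co (37.9 to 54.2), LOC100847700 in FoEV (21.7 to 40.5) sat above Co (14.8 to 19.3), and CASP8 was scattered within every group.

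LOC100847700, the row given for cytochrome c, went the other way. Its level was 19.3, 17.2, 15.2, 15.3 and 14.8 CPM in Co, 20.3, 21.9, 18.1, 9.11 and 19.8 in FeEV, and 24.1, 21.7, 40.5, 25.4 and 24.8 in FoEV. All 5 FoEV libraries lay above all 5 Co libraries and 4 of 5 above all FeEV libraries, with FoEV replicate 3 well above the rest. The log2 difference was 0.74 for FoEV to Co (SE 0.20, interval 0.32 to 1.15, edgeR adjusted p = 0.123), 0.14 for FeEV to Co (SE 0.21, interval -0.29 to 0.57, edgeR adjusted p = 1.0) and 0.59 for FoEV to FeEV (SE 0.19, interval 0.19 to 1.0, edgeR adjusted p = 0.486). For FoEV to Co the call passed with the robust likelihood ratio test (0.64, adjusted p = 0.0233), with DESeq2 (0.73, adjusted p = 0.0448) and in edgeR without a filter on low counts (0.73, adjusted p = 0.0128), within a range of 0.0128 to 0.39 over 12 other settings. The highest of those was the sum with the CYCS row. Without FoEV replicate 3 the difference was 0.54 (edgeR adjusted p = 0.199).

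Gene 510767, named CYCS, showed no such separation. Its level was 135, 163, 118, 139 and 126 CPM in Co, 128, 152, 128, 149 and 127 in FeEV, and 144, 124, 193, 137 and 146 in FoEV. The groups overlapped, although FoEV replicate 3 was again the highest library. Its FoEV to Co difference was 0.13 (SE 0.11, interval -0.11 to 0.36, edgeR adjusted p = 0.619), FeEV to Co was 0.01 (SE 0.11, adjusted p = 1.0) and FoEV to FeEV was 0.12 (SE 0.11, adjusted p = 0.766). The CYCS row held 6662 counts over the 15 libraries and LOC100847700 held 1005. With both rows added, the FoEV to Co difference was 0.21 (edgeR adjusted p = 0.39).

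The share of cytochrome c reads assigned to LOC100847700 was higher in FoEV. The ratio of its counts to those of CYCS was 0.105 to 0.144 in Co (mean 0.121 ± 0.0153, SD of 5 libraries) and 0.061 to 0.158 in FeEV (0.132 ± 0.0404). In FoEV it was 0.167 to 0.21 (0.182 ± 0.0176). Every FoEV library lay above every library of the other groups. A ratio within a library does not depend on how libraries are scaled; it is given as a description, with no test. Reads of near-identical copies or of overlapping genes can be divided between rows in ways the counting sets, so the level of LOC100847700 is uncertain.

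**Figure D2:**
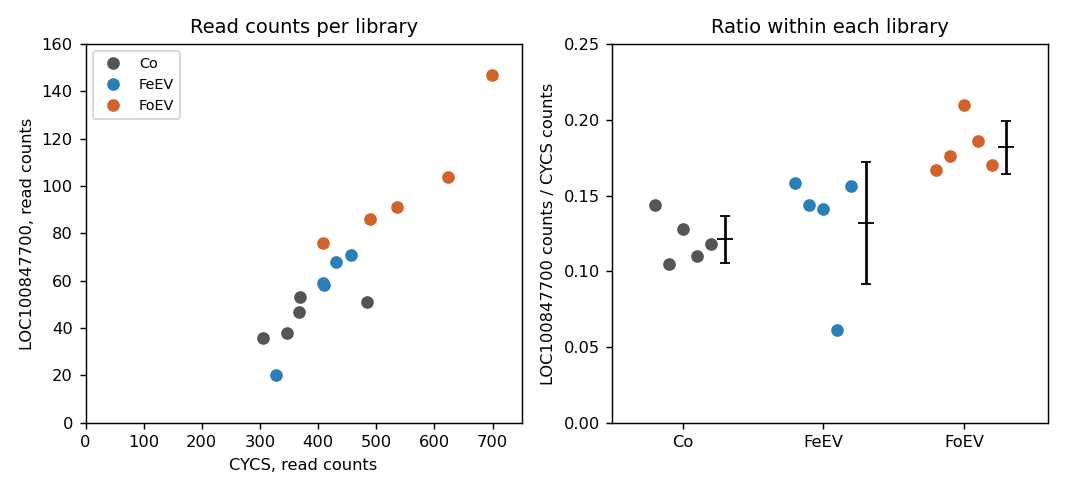
Left, read counts of LOC100847700 against those of CYCS, 1 point per library. Right, the ratio of these counts in each library, with the group mean and SD, where FoEV (0.167 to 0.21) lay above Co (0.105 to 0.144) and FeEV (0.061 to 0.158).

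Set against APAF1 within a library, the cytochrome c rows were relatively more abundant in FoEV. The count ratio of LOC100847700 to APAF1 was 0.281 to 0.51 in Co, 0.317 to 0.617 in FeEV and 0.623 to 1.34 in FoEV, with no overlap between FoEV and the others. For CYCS to APAF1 the ratio was 2.56 to 4.07 in Co, 3.55 to 5.21 in FeEV and 3.55 to 6.35 in FoEV, and these ranges overlapped. Both ratios use the members already described, and add no independent evidence.

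CASP9, which APAF1 recruits and activates, was counted in 16 to 48 reads per library. Its level was 7.66, 8.43, 7.74, 8.83 and 13.5 CPM in Co, 6.85, 7.8, 6.57, 8.2 and 8.38 in FeEV, and 11.1, 9.33, 8.27, 5.34 and 7.36 in FoEV. The groups overlapped, and Co replicate 5 was the highest library. The FoEV to Co difference was -0.13 (SE 0.22, interval -0.59 to 0.32), FeEV to Co was -0.28 (SE 0.23, interval -0.76 to 0.19) and FoEV to FeEV was 0.15 (SE 0.22, interval -0.31 to 0.61). These intervals leave room for a change in either direction at this depth.

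CASP8, the initiator caspase of the death receptor route, was counted too thinly for the filtered table. Its counts were 7, 5, 28, 7 and 12 in Co, 24, 7, 11, 4 and 6 in FeEV, and 40, 32, 3, 3 and 15 in FoEV. In every group 1 or more libraries stood high: Co replicate 3, FeEV replicate 1 and FoEV replicates 1 and 2. The coefficient of variation in CPM ran from 67.3% in FeEV to 84.1% in FoEV, against 34.8% to 39.7% from counting error. In a fit on the 11612 genes that a lower count filter keeps, the FoEV to Co difference was 0.17 (SE 0.60, interval -1.09 to 1.43, edgeR adjusted p = 0.922), FeEV to Co was -0.31 (SE 0.64) and FoEV to FeEV was 0.48 (SE 0.61). A difference between groups was not detectable with these low counts and this spread between libraries, which exceeded counting error.

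Some other genes were high in some of the same libraries. In Co replicate 3, FeEV replicate 1, FoEV replicate 1 and FoEV replicate 2, IFNT2, an interferon tau gene of the trophectoderm, had 16, 7, 41 and 22 counts, and PRM1, a sperm protamine, had 33, 13, 51 and 19. FeEV replicate 1 was not the highest FeEV library for IFNT2, since replicate 5 had 12 counts. Over the 15 libraries, CASP8 correlated with CFLAR, an inhibitor of CASP8, at r = 0.73, with IFNT2 at 0.76 and with PRM1 at 0.61. FADD, the adaptor that binds CASP8, correlated at 0.18. These are descriptions, since the points share library and depth, and the part of sperm RNA or trophectoderm content in them was not tested.

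XIAP, the IAP that directly inhibits CASP9, had its lowest mean level in FoEV too. The level was 66.0, 84.0, 89.3, 97.5 and 66.1 CPM in Co, 66.5, 90.2, 64.1, 86.5 and 52.0 in FeEV, and 51.2, 73.4, 44.6, 60.4 and 61.3 in FoEV. Of the FoEV libraries 4 lay below all Co libraries, and FoEV replicate 2 lay within them. The FoEV to Co difference was -0.47 (SE 0.16, interval -0.80 to -0.14, edgeR adjusted p = 0.179), FeEV to Co was -0.18 (SE 0.16, interval -0.50 to 0.15, edgeR adjusted p = 1.0) and FoEV to FeEV was -0.30 (SE 0.16, interval -0.62 to 0.03, edgeR adjusted p = 0.603). Without a filter on low counts the FoEV to Co call passed (-0.48, edgeR adjusted p = 0.0213), within a range of 0.0213 to 0.314 over 11 other settings.

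XIAP lies on the X chromosome in mammals, and XIST, the RNA that coats the inactive X, varied among pools. XIST was 85.4 to 212 CPM in Co, 188 to 297 in FeEV and 82.9 to 421 in FoEV. XIAP residuals about the group means correlated with XIST at r = 0.58 and with KRT8 at r = -0.77, over the same 15 libraries. The parts of sex composition and of trophectoderm or inner cell mass content in the XIAP difference were not tested.

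BIRC2, an IAP that ubiquitinates RIPK1 in the tumour necrosis factor pathway, was nearly level across groups. It was 31.7, 22.3, 31.9, 27.7 and 29.1 CPM in Co, 28.0, 28.6, 26.9, 27.8 and 29.3 in FeEV, and 27.1, 38.3, 22.6, 23.4 and 27.5 in FoEV. The FeEV libraries lay closer together than the others, inside the ranges of Co and FoEV. Its differences were -0.03 for FoEV to Co (SE 0.15, interval -0.33 to 0.27), -0.02 for FeEV to Co (SE 0.15) and -0.01 for FoEV to FeEV (SE 0.14).

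BIRC5 (survivin), an IAP that serves mitosis as part of the chromosomal passenger complex, split the FoEV libraries. It was 67.8, 75.6, 77.1, 75.1 and 78.8 CPM in Co, 73.0, 71.7, 70.4, 64.2 and 66.2 in FeEV, and 88.7, 83.8, 65.8, 64.8 and 87.2 in FoEV. FoEV replicates 1, 2 and 5 lay above all Co libraries and replicates 3 and 4 below them. The FoEV to Co difference was 0.06 (SE 0.10, interval -0.15 to 0.28), FeEV to Co was -0.11 (SE 0.10, interval -0.33 to 0.10) and FoEV to FeEV was 0.18 (SE 0.10, interval -0.03 to 0.39, edgeR adjusted p = 0.626). The coefficient of variation in FoEV was 15.1%, against 5.61% in Co and 5.41% in FeEV. Its partners AURKB, INCENP and CDCA8 had none with an unadjusted p under 0.05 in any comparison (edgeR), and their FoEV to Co differences ran from 0.04 to 0.29.

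DIABLO, the mitochondrial antagonist of IAPs, was among the steadiest members. It was 27.0, 35.1, 37.7, 32.1 and 35.7 CPM in Co, 37.6, 37.9, 35.0, 39.2 and 32.7 in FeEV, and 35.4, 31.8, 37.5, 40.1 and 33.0 in FoEV. All groups overlapped. Its differences were 0.08 for FoEV to Co (SE 0.12, interval -0.16 to 0.32), 0.12 for FeEV to Co (SE 0.12) and -0.04 for FoEV to FeEV (SE 0.12). Its biological coefficient of variation in edgeR was 0.106, against 0.191 for LOC100847700 and a median of 0.151 over all genes.

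**Figure D3:**
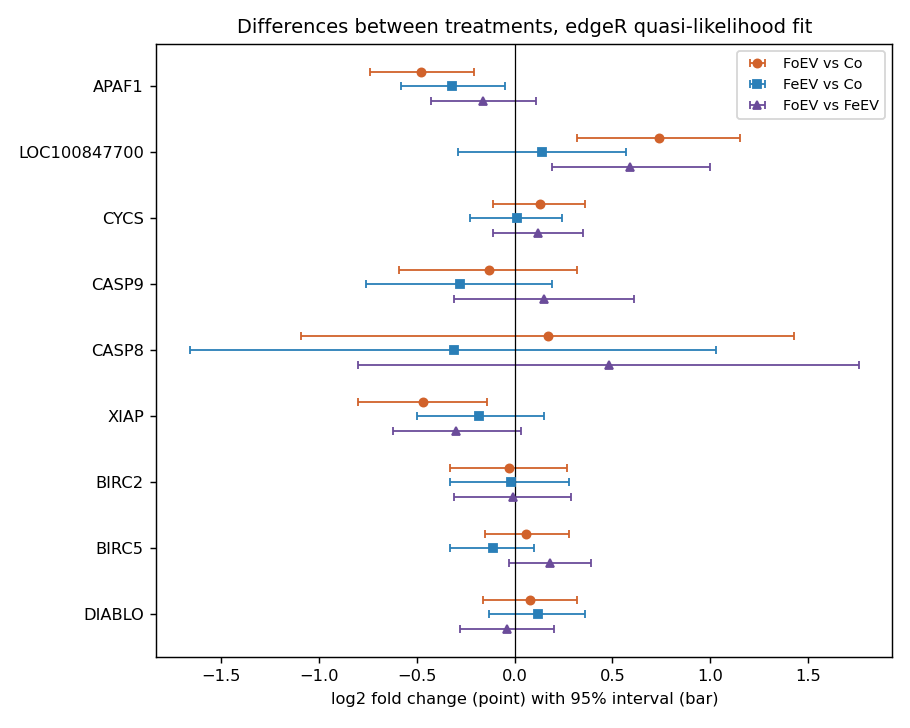
Log2 fold change of each gene in the 3 comparisons, with 95% intervals from the edgeR quasi-likelihood fit (CASP8 from the fit with the lower count filter). The FoEV to Co intervals of APAF1 (-0.74 to -0.21), XIAP (-0.80 to -0.14) and LOC100847700 (0.32 to 1.15) exclude 0, and CASP8 has the widest interval (-1.09 to 1.43).

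Members were chosen with earlier results of these data known, and the study reports APAF1 as lower and CYCS as higher in FoEV than in Co. Counts of members beside all genes are therefore a description and no independent evidence. Over the 7 members tested, 3 had an unadjusted p under 0.05 for FoEV to Co, against 15.1% of all genes. LOC100847700 was the 1 on the higher side (8.18% of all genes) and APAF1 and XIAP the 2 on the lower side (6.88%), and 0 had an unadjusted p under 0.001 (0.831% of all genes did). At an adjusted p under 0.05, 0 of 7 passed in edgeR's quasi-likelihood test (0.00923% of all genes did), 2 of 7 in the robust likelihood ratio test (2.87% of all genes), 2 of 7 in DESeq2 (1.27%) and 2 of 7 without a filter (0.679% of all genes fitted). Groups that did not overlap were found for 2 of 7 members, against 2.6% of all genes: LOC100847700 higher (1.26%) and APAF1 lower (1.35%). For FeEV to Co, 1 of 7 had an unadjusted p under 0.05, APAF1 on the lower side, against 4.15% of all genes (1.83% higher and 2.32% lower), and for FoEV to FeEV 1 of 7 did, LOC100847700 on the higher side, against 8.52% (4.83% higher and 3.69% lower). In these comparisons the groups overlapped for every member, while they did not for 0.951% and 1.5% of all genes. After adjustment 0 of 7 passed in either with edgeR's quasi-likelihood test (0.0% of all genes), the robust test, DESeq2 or no filter. The median difference of the members was -0.03, -0.11 and -0.01 for FoEV to Co, FeEV to Co and FoEV to FeEV, beside 0.01, 0.00 and 0.01 for all genes.

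Members did not move as a block from library to library. Over 36 pairs of the 9 rows, the correlation of residuals about group means ran from -0.70 to 0.83 with a median of 0.03. The highest was CASP8 with BIRC5 (0.83), followed by CASP8 with BIRC2 (0.65), and the lowest were CYCS with BIRC2 (-0.70) and CYCS with CASP8 (-0.65). APAF1 with CASP9, its partner in the apoptosome, was 0.09, APAF1 with XIAP was 0.36, and the cytochrome c rows were 0.32 with each other. All are descriptions over 15 libraries that share depth and pool.

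**Figure D4:**
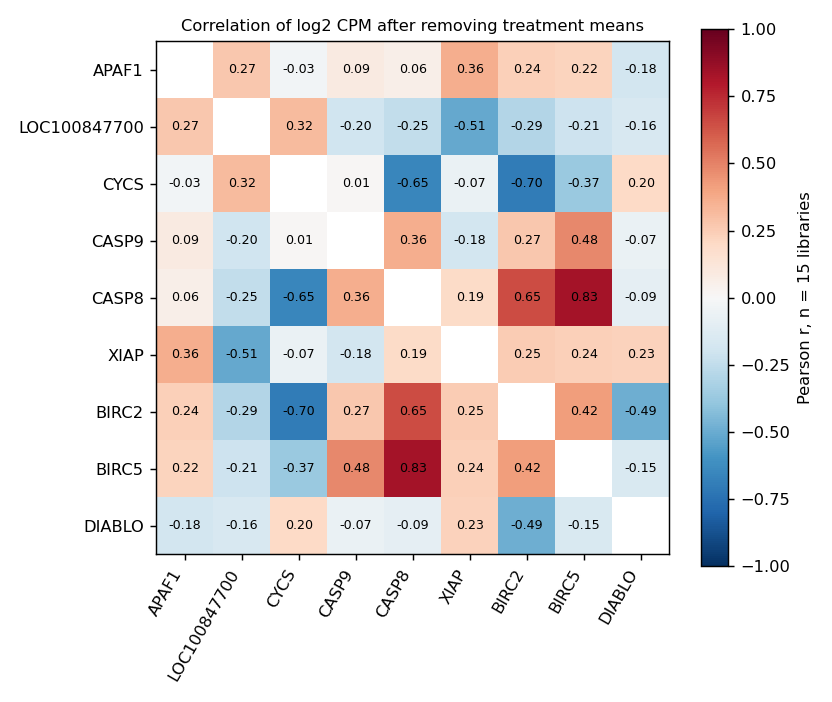
Pearson correlation of the log2 CPM residuals about group means between the 9 rows, over 15 libraries, on a colour scale from -1 to 1. CASP8 with BIRC5 (0.83) is the highest pair and CYCS with BIRC2 (-0.70) the lowest.

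The genes whose log2 CPM followed each member most closely were taken from the whole filtered table, by Pearson r over 15 libraries. For APAF1 they were KIF27 and AP5M1 (0.87 each), for LOC100847700 they were LOC785503 (0.90) and NACC2 (0.88), and for CYCS they were C1QBP and COX5B (0.82 each), both of which encode mitochondrial proteins. XIAP was followed by YTHDC2 (0.95) and SBNO1 (0.90), BIRC5 by CENPQ (0.85), a kinetochore gene, and MAGED2 (0.84), and BIRC2 by PPP2R3A (0.83) and DMXL2 (0.82). DIABLO was followed by HES1 and DZIP1 (0.86 each), CASP9 by MRPS6 (0.80) and FAF1 (0.77), and CASP8 by TMEM185A and SGMS2 (0.89 each). The 99th percentile of r over all genes lay between 0.59 for CASP9 and 0.76 for XIAP.

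Around the members stand 60 other genes of cell death and cytochrome c function, of which 59 had a name in the reference table, 48 were tested and 11 fell below the filter. For FoEV to Co, 5 were higher and 3 lower at an unadjusted p under 0.05 (16.7%, against 15.1% of all genes), 3 had groups that did not overlap (RIPK1, DFFA and TRAF2, against 2.6% of all genes), and 0 passed adjustment in edgeR, the robust test, DESeq2 or without a filter. For FeEV to Co 0 were higher and 3 lower, and for FoEV to FeEV 3 were higher and 0 lower (6.25% each, against 4.15% and 8.52% of all genes), again with 0 after adjustment in these tests. Their median difference for FoEV to Co was 0.04, beside 0.01 for all genes.

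On the death receptor side, FADD had the largest difference of the 48 genes for FoEV to Co. It was 17.9, 10.5, 13.9, 12.8 and 16.4 CPM in Co, 15.8, 13.7, 18.1, 11.8 and 14.0 in FeEV, and 33.3, 17.9, 20.9, 24.7 and 16.1 in FoEV. FoEV replicate 1 was the highest, and replicates 2 and 5 lay at or within the ranges of the other groups. The difference was 0.67 for FoEV to Co (SE 0.20, edgeR adjusted p = 0.145) and 0.61 for FoEV to FeEV (SE 0.20, edgeR adjusted p = 0.467). RIPK1, a kinase of the tumour necrosis factor receptor complex, was 0.31 higher for FoEV to Co (SE 0.15), with FoEV at 23.7 to 27.1 CPM above Co at 16.0 to 23.2, and DAXX, a FAS-binding and chromatin protein, was 0.36 higher for FoEV to FeEV (SE 0.16).

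Other genes with an unadjusted p under 0.05 came from several lists. Of caspase targets, DFFA, the inhibitor of the nuclease DFFB, was -0.29 (SE 0.13), with FoEV at 24.0 to 29.9 CPM below Co at 30.0 to 36.1, and the kinase PAK2 was -0.24 (SE 0.11) for FoEV to Co, and GSN, an actin-severing protein, was -0.43 (SE 0.20) for FeEV to Co. TRAF2, an adaptor that binds BIRC2, was -0.46 for FeEV to Co (SE 0.17), with all 5 FeEV libraries (8.65 to 14.7 CPM) below all Co libraries (15.5 to 17.5). Its FoEV libraries (12.4 to 15.1) lay below Co as well, with a difference of -0.24 (SE 0.16). CIAPIN1, a cytosolic iron-sulfur protein described as anti-apoptotic, was 0.29 higher for FoEV to FeEV (SE 0.14). The edgeR adjusted p of these genes was 0.312 or higher in each of these comparisons.

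The partners of cytochrome c in its maturation and in the respiratory chain lay on the side of LOC100847700. All 8 tested had a FoEV to Co difference above 0, from 0.06 to 0.41 with a median of 0.18, where 52.3% of all genes lay above 0. An unadjusted p under 0.05 on the higher side was found for 3 of the 8, against 8.18% of all genes. HCCS, which attaches haem to cytochrome c, was 0.41 (SE 0.18, edgeR adjusted p = 0.294), CYC1, the cytochrome c1 of complex III, was 0.33 (SE 0.12, edgeR adjusted p = 0.192), and COX4I1, a subunit of cytochrome c oxidase, was 0.23 (SE 0.10, edgeR adjusted p = 0.302). For FeEV to Co 7 of 8 were above 0 (51.0% of all genes) with a median of 0.06, and none had an unadjusted p under 0.05.

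**Figure D5:**
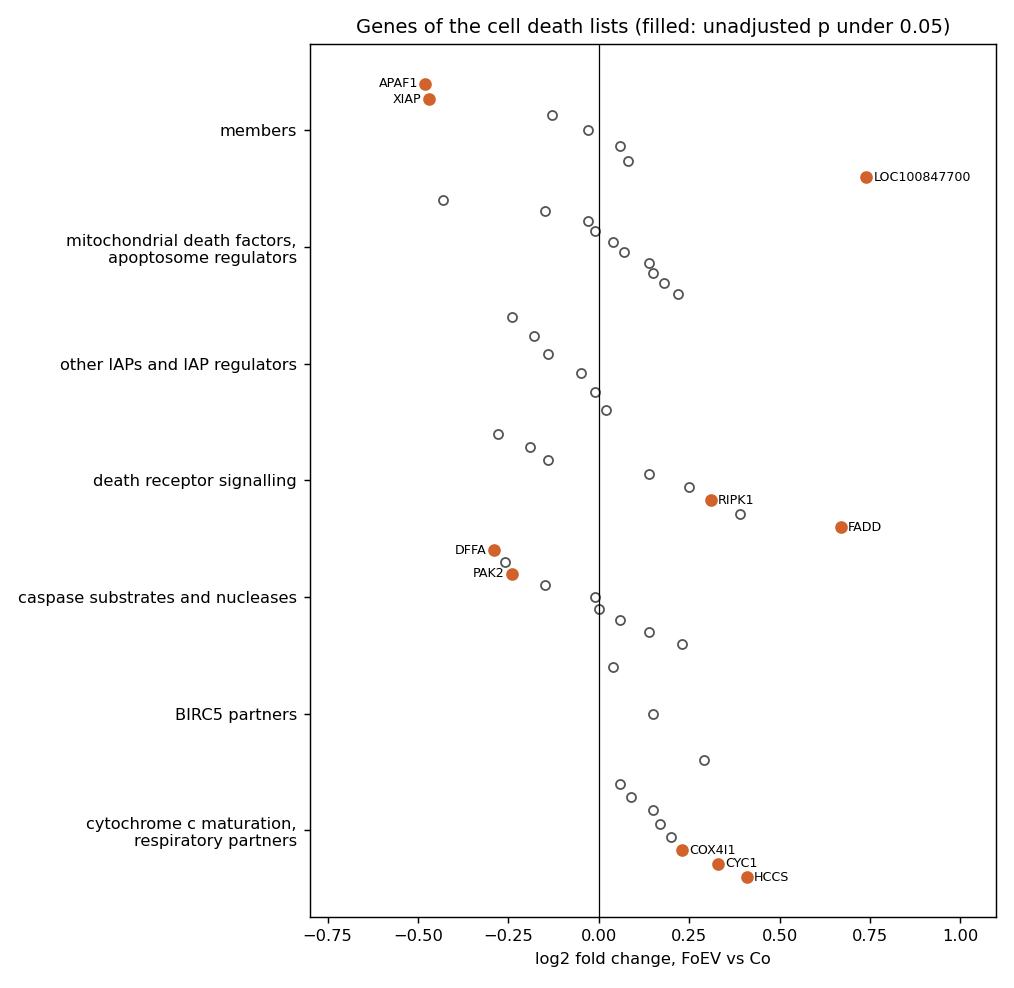
Log2 fold change for FoEV to Co of the members and of other cell death genes tested, by list; the list of other caspases is not drawn. Filled points have an unadjusted p under 0.05 and are named; all 8 cytochrome c partners lie to the right of 0 (0.06 to 0.41), and LOC100847700 (0.74) and FADD (0.67) lie farthest out.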

How the data were processed

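RNA sequencing read counts of 15 bovine blastocyst pools were deposited by the authors as an unfiltered and a filtered count table. The submitters' processing notes name Trim Galore 0.4.3.1, HISAT2 2.1.0 and featureCounts 1.6.3 with genome ARS-UCD1.2; the study's methods name another counter, so which one made the counts is not settled. No coordinates are printed, because the reference gene table is of ARS-UCD2.0 and was used only for names and overlapping genes.

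Counts were tested in edgeR 4.0.16 (R 4.3.3; trimmed mean of M values, quasi-likelihood F test, treatment only, all 15 libraries in 1 fit), with Benjamini-Hochberg adjustment over all 10832 genes and a threshold of 0.05. DESeq2 1.42.0, the robust likelihood ratio test and other scalings, filters, blocks and left-out libraries were alternatives. The procedure was tested on simulated data. Correlations used log2 CPM with a prior count of 2, except for CASP8, where a different small offset was added to the CPM of the unfiltered table. Total counts per library were 2136713 to 4058887, and intervals of counting error cover counting only.

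The members, lists and tests were chosen with earlier results of these data known. Named genes are all members, the cytochrome c rows, list genes with an unadjusted p under 0.05 in any comparison, and the 2 genes most like each member; some genes this rule names are not reported here.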

Additional observations from a re-analysis of the deposited data

Results flagged for a closer look

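In 3 of 27 groups of 5 libraries, 1 library stood far from the rest by Dixon's test, which flags about 1 in 20 groups by chance. APAF1 was 54.2 CPM in Co replicate 4, where the others were 37.9 to 41.0. LOC100847700 was 40.5 CPM in FoEV replicate 3, where the others were 21.7 to 25.4. CASP9 was 13.5 CPM in Co replicate 5, where the others were 7.66 to 8.83. Without these libraries the FoEV to Co difference was -0.38 for APAF1 (edgeR adjusted p = 0.331) and 0.54 for LOC100847700 (edgeR adjusted p = 0.199). Without Co replicate 5 the CASP9 difference turned from -0.13 to 0.04 (edgeR adjusted p = 0.955).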

How the results depend on the processing

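The number of genes called over the whole table depended strongly on the test, and the cause was not tested. For FoEV to Co it was 1 in the edgeR quasi-likelihood test, 311 with the robust likelihood ratio test, 138 with DESeq2, 173 without a filter, 57 with the replicate number as a block, 12 with the library number as a block, 8 with library totals only, 5 with only the 2 groups compared, 2 with thinned counts and 0 to 58 when each library was left out in turn. For FeEV to Co it was 0, and 6, 1 and 13 with the robust test, DESeq2 and no filter (0 to 1 leaving out a library). For FoEV to FeEV it was 0, and 31, 3, 22 and 1 with the robust test, DESeq2, no filter and the library number block (0 to 1).

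Of the 7 members, 3 had an unadjusted p under 0.05 for FoEV to Co under every setting with all libraries. Under 0.001 the quasi-likelihood test had 0 (0.831% of all genes), the robust test and DESeq2 2 each, and no filter 3. Thinned counts, the replicate block and only the 2 groups compared had 1 each. The share of all genes under 0.001 in these other settings is not given here. For FeEV to Co, 1 of the 7 members had an unadjusted p under 0.05 (449 of 10832 genes did), 0 with library totals only (338 genes), and 0 to 1 leaving out a library. For FoEV to FeEV 1 did (923 of 10832 genes did), 2 with the robust test, no filter or the replicate block, and 1 to 2 leaving out a library. With the robust test and with the replicate block, more of all genes had an unadjusted p under 0.05 as well. Without a filter the number of such genes was also higher, but over more genes fitted (25470). The rise from 1 to 2 members is therefore not specific to the members.

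Of 427 values of single named genes under other settings, 415 kept their direction and side of the threshold, 6 newly passed and 6 turned sign; leaving out a library, 596 of 615 kept both and 19 turned sign. CYCS for FeEV to Co was -0.02 with the library number block, 0.00 without ribosomal RNA genes and -0.04 to 0.08 leaving out a library. BIRC2 was 0.11 and 0.13 with thinned counts for FoEV to Co and FoEV to FeEV and 0.02 with library totals only for FeEV to Co; its leave-one-out ranges were -0.18 to 0.02, -0.16 to 0.05 and -0.10 to 0.02. BIRC5 for FoEV to Co was -0.03 with the library number block. Leaving out a library gave -0.26 to 0.04 for CASP9 and -0.24 to 0.69 for CASP8 (FoEV to Co), -0.81 to 0.21 for CASP8 (FeEV to Co) and -0.08 to 0.00 for DIABLO (FoEV to FeEV).

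Libraries with the same replicate number had a mean residual correlation of 0.034 for FoEV and Co (-0.291 to 0.347, 1 of 5 over 0.1). It was 0.138 for FeEV and Co (-0.214 to 0.42, 3 of 5) and 0.186 for FoEV and FeEV (0.013 to 0.441, 3 of 5). Libraries with different replicate numbers had means of -0.008, -0.034 and -0.046. By the submitters' library number the means were 0.076, 0.097 (0.063 to 0.158) and 0.072, with 1 pair over 0.1 in each comparison. Not every pair passed 0.1 in any comparison, and the numbers were not taken as pairs. With the replicate block, APAF1, LOC100847700 and XIAP for FoEV to Co had an edgeR adjusted p of 0.0873, 0.0761 and 0.0756. For FoEV to FeEV, XIAP had one of 0.413. Counts per library were low for CASP8 (3 to 40) and CASP9 (16 to 48), and CASP8 also varied within groups by more than counting error.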
